A study of Mus musculus with 47 samples.

Results

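The genes followed here mark Purkinje cells, the output neurons of the cerebellar cortex, and are Pcp2, Ppp1r17, Car8, Itpr1, Calb1, Slc1a6, Rgs8, Lhx1 and Lhx5. They were taken from a list of 9 gene names, drawn up with earlier results of these data known, and all 9 were present among the 55416 gene identifiers of both the male and the female tables of counts. RNA came from the brains of homozygous 3xTg mice, an AD model whose alleles include mutant human APP and MAPT transgenes under the neuronal Thy1 promoter, so that Control-fed mice carried them too. From 6 months of age the mice ate a Control diet or 1 of 3 restricted diets, named IleR (low isoleucine), LeuR (low leucine) and ValR (low valine), and brains were collected after 9 months on the diet, at 15 months of age. The male libraries were 4 Control, 3 IleR, 3 LeuR and 4 ValR, the females gave 6 Control, 5 IleR, 6 LeuR and 6 ValR libraries, and each library is called by its diet and the number in its label, such as Control 4. Another 10 labelled male libraries are not analysed here. The methods state that outliers were removed after principal component analysis, that RNA was taken from the left hemisphere, and the labels give the tissue as brain while their extraction text names liver.

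Purkinje cells lie in a single layer, receive glutamate from granule cells and climbing fibres, and send the only output of the cerebellar cortex as GABA. Their large calcium signals come in part from the endoplasmic reticulum, where metabotropic glutamate receptors drive production of IP3, which opens the IP3 receptor encoded by Itpr1. A few of the 9 genes, such as Pcp2, are nearly limited to Purkinje cells in the brain, whereas Calb1, Itpr1 and Rgs8 are also used by forebrain neurons, and Lhx1 and Lhx5 by other neurons of the hindbrain, diencephalon and cortex. In RNA from whole tissue, fewer cells of a type and less RNA per cell cannot be told apart, and neither can a change in cells and a change in how much cerebellum was in the sample.

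Total counts ranged from 10672599 to 25722333 per library over the 37 libraries. Levels are given as CPM, counts scaled to library size, after TMM normalization within each sex, and a gene is called changed where edgeR's quasi-likelihood test gave an adjusted p under 0.05, with Benjamini-Hochberg adjustment over all genes tested, 22197 in males and 20344 in females. All 9 genes passed the filter on low counts in each sex. Genes on the other strand overlap Pcp2, Car8, Itpr1, Rgs8 and Lhx5. The methods name a stranded library preparation, but whether counting used strand is not given in the sources used here. Reads of the 2 strands may therefore be mixed for these genes. With TMM, 1472 genes were called higher and 1925 lower in IleR-fed than in Control-fed males, and with library totals alone these were 2425 and 1458, as the median of all genes moved from 0.04 to 0.17 on the log2 scale. The study counts its groups in mice, and each library was treated as a separate animal.

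In males, most of the Purkinje cell genes were higher than on Control with IleR and ValR, and fewer with LeuR. Of the 9 genes, 8 were called higher in IleR-fed, 4 in LeuR-fed and 9 in ValR-fed males, and none was called lower. Among all genes tested, 6.63%, 3.81% and 11.1% were called higher in the same comparisons, and 8.67%, 6.33% and 12.4% lower. The median log2 fold change of the 9 genes was 3.08 (IleR), 2.69 (LeuR) and 3.46 (ValR), beside medians over all genes of 0.04, 0.05 and 0.03. The 3 comparisons share the 4 Control libraries. In females no gene of the 9 was called on any diet.

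**Figure D1:**
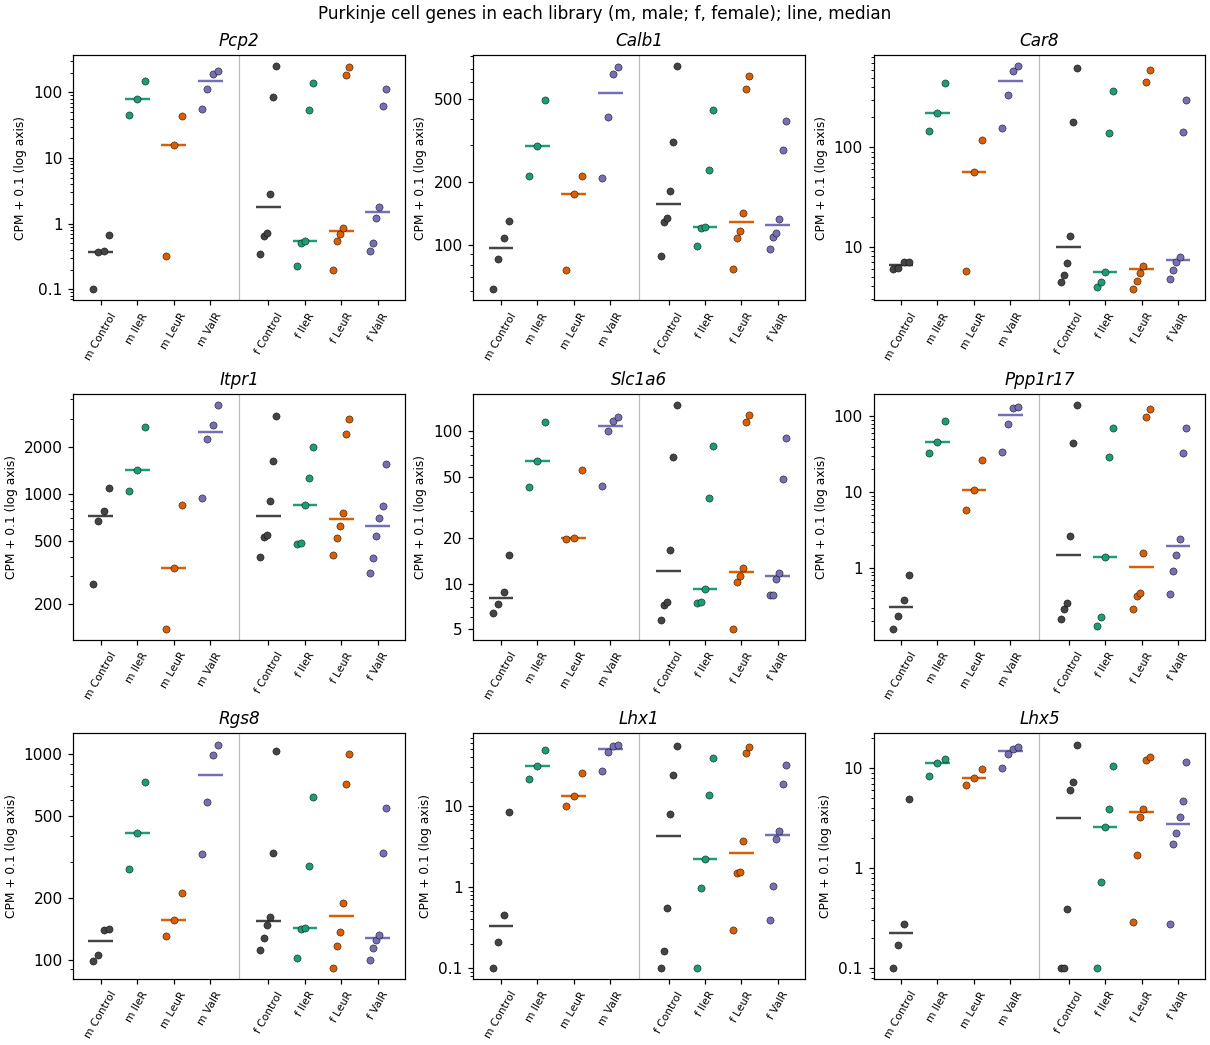
Level of each of the 9 genes in each of 37 libraries, as CPM plus 0.1 on a log axis, with males left and females right of the grey line, 1 point per library and a line at the median of the group. In males the 4 Control points lie low and all 3 IleR and 4 ValR points lie high for Pcp2, while in each female group 2 libraries lie high and the rest low.

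Pcp2 encodes a modulator of G protein signalling that is known from Purkinje cells and retinal bipolar cells. It lies on chromosome 8, from 3623371 to 3625545 on the minus strand of GRCm38, and overlaps Pet100 on the other strand. The 250 bases before its start site, at chr8:3625548-3625797 of the minus strand, are shown because Pcp2 had the largest fold changes of the 9 genes in all 3 male comparisons. The sequence is RefSeq's for GRCm38.p6, reads towards the start site, and has in capitals AGGTCA, a half-site bound by nuclear receptors of the ROR type.
Pcp2: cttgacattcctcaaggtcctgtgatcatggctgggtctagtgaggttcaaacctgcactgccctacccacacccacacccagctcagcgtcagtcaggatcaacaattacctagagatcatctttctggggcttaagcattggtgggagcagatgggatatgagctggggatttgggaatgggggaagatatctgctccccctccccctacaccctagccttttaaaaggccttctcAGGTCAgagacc
The half-site begins 12 bases before the start site. It was searched on both strands of the 300-base window from 250 bases before to 50 after the start, and 16.3% of 32851 such windows in the mouse table held it. The homeodomain core TAATTA (in 5.29% of windows), the TATA box written as TATAAA (13.6%) and the E-box CAGCTG (16.3%) were searched in the same way and were not found in the Pcp2 window.

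Pcp2 was at 0.272, 0, 0.573 and 0.279 CPM in Control 1, 3, 4 and 5, which is 4, 0, 9 and 5 counts. In IleR-fed males it was at 45.7 CPM in IleR 13, 79.2 in IleR 14 and 150 in IleR 17. The LeuR-fed males split, with 15.9 CPM in LeuR 19, 44.1 in LeuR 20 and 0.226 in LeuR 21. In ValR-fed males the levels were 114 CPM in ValR 7, 56.5 in ValR 9, 190.4 in ValR 10 and 209.7 in ValR 12. All IleR and ValR libraries were above all Control libraries, and LeuR 21 lay within the Control range. The log2 fold change against Control was 8.33 ± 1.24 (SE) with IleR, 6.13 ± 1.25 with LeuR and 8.97 ± 1.23 with ValR, with adjusted p of 0.00132, 0.0115 and 0.000284. Folds this large rest on Control levels of a few counts and depend on how such low counts are modelled.

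The 37 libraries fell into 2 sets by their Pcp2 level, with no library between 2.73 and 15.9 CPM. Above 10 CPM were 0 of 4 Control, 3 of 3 IleR, 2 of 3 LeuR and 4 of 4 ValR libraries in males. In females they were 2 of 6 Control, 2 of 5 IleR, 2 of 6 LeuR and 2 of 6 ValR libraries, so that 8 of 23 female and 9 of 14 male libraries were high. Itpr1, Calb1 and Rgs8 were also present in libraries with next to no Pcp2, at no less than 139, 61.0 and 91.0 CPM in any of the 37. The 2 sets were read from the data, are not groups of the study, and are given as counts with no test.

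Ppp1r17, also known as G-substrate (chromosome 6, 56017497 to 56032689 on the plus strand), encodes a substrate of cGMP-dependent protein kinase that inhibits protein phosphatases in Purkinje cells. In Control-fed males it was at 0.136, 0.0592, 0.700 and 0.279 CPM in Control 1, 3, 4 and 5. These are 2, 1, 11 and 5 counts, so the fold changes of Ppp1r17, like those of Pcp2, rest on few Control counts. It was at 33.3, 45.7 and 85.6 CPM in IleR 13, 14 and 17, and at 78.4, 33.4, 130 and 132 CPM in ValR 7, 9, 10 and 12. In LeuR 19, 20 and 21 it was at 10.5, 26.4 and 5.70 CPM, so that LeuR 21, which had 4 counts of Pcp2, had 101 counts of Ppp1r17. Each restricted library was above each Control library. The log2 fold changes were 7.52 ± 0.78 (SE) with IleR, 5.55 ± 0.80 with LeuR and 8.29 ± 0.77 with ValR, and their adjusted p of 0.000746, 0.00359 and 8.16e-05 were the smallest of the 9 genes on each diet.

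Car8 (chromosome 4, 8143362 to 8239041 on the minus strand) encodes a carbonic anhydrase relative without enzyme activity that binds the IP3 receptor and lowers its affinity for IP3. The 4 male Control libraries were close together, at 6.88, 5.92, 6.05 and 6.93 CPM. Car8 was at 147, 222 and 438 CPM in IleR 13, 14 and 17, and at 333, 157, 590 and 654 CPM in ValR 7, 9, 10 and 12. LeuR 19 and 20 had 56.6 and 118 CPM, and LeuR 21 had 5.59 CPM, below all 4 Control libraries. The log2 fold change was 5.38 ± 0.79 (SE, adjusted p = 0.00130) for IleR, 3.22 ± 0.74 (adjusted p = 0.0183) for LeuR and 6.07 ± 0.80 (adjusted p = 0.000233) for ValR.

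Itpr1, the IP3 receptor itself (chromosome 6, 108213096 to 108551109 on the plus strand), was the one gene of the 9 whose male groups overlapped on every diet. It was at 1089, 778, 267 and 677 CPM in Control 1, 3, 4 and 5, and Control 4 lay well under the others. IleR 13, 14 and 17 had 1048, 1425 and 2658 CPM, and ValR 7, 9, 10 and 12 had 2241, 941, 2758 and 3670 CPM, so that 1 library of each diet lay below Control 1. LeuR 19, 20 and 21 had 339, 856 and 139 CPM, and LeuR 21 was the lowest of all 14. The ValR difference was called, at 1.77 ± 0.57 (SE) on the log2 scale with an adjusted p of 0.0372, but not without Control 3, 4 or 5, IleR 14, or ValR 7, 10 or 12, where the adjusted p rose to at most 0.107. The IleR difference of 1.28 ± 0.59 (adjusted p = 0.166) and the LeuR difference of -0.66 ± 0.60 (adjusted p = 0.519) were not called.

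Calb1 (chromosome 4, 15881264 to 15908064 on the plus strand) encodes calbindin, the calcium buffer of Purkinje cells, and is also a gene of cortical, hippocampal and striatal neurons. Control 1, 3, 4 and 5 had 130, 107, 61.0 and 85.0 CPM. IleR 13, 14 and 17 had 212, 297 and 492 CPM, and ValR 7, 9, 10 and 12 had 411, 209, 660 and 713 CPM, all above Control. LeuR 19, 20 and 21 had 75.9, 214 and 175 CPM, of which the first lay within the Control range. Calb1 was called higher for IleR, at 1.80 ± 0.44 (SE, adjusted p = 0.0143), and for ValR, at 2.38 ± 0.42 (adjusted p = 0.00139). For LeuR the difference was 0.69 ± 0.43 (adjusted p = 0.332). The IleR call was lost without IleR 17, with an adjusted p of 0.0805.

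Slc1a6 (chromosome 10, 78780496 to 78814765 on the plus strand) encodes EAAT4, the glutamate transporter of Purkinje cell spines. In Control 1, 3, 4 and 5 it was at 6.33, 8.70, 15.3 and 7.26 CPM. It was at 42.8, 63.8 and 115 CPM in IleR 13, 14 and 17, at 19.9, 55.8 and 19.6 CPM in LeuR 19, 20 and 21, and at 101, 43.5, 117 and 124 CPM in ValR 7, 9, 10 and 12. All restricted libraries were above Control 4, the highest of its group. The log2 fold change was 2.97 ± 0.48 (SE, adjusted p = 0.00177) for IleR, 1.75 ± 0.48 (adjusted p = 0.0350) for LeuR and 3.36 ± 0.47 (adjusted p = 0.000316) for ValR.

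Rgs8 (chromosome 1, 153653025 to 153700323 on the plus strand) encodes a regulator of G protein signalling that speeds the return of Gi and Gq proteins to rest. Control 1, 3, 4 and 5 had 142, 105, 140 and 98.2 CPM. IleR 13, 14 and 17 had 278, 413 and 735 CPM and ValR 7, 9, 10 and 12 had 587, 328, 990 and 1115 CPM, with no overlap with Control. LeuR 19, 20 and 21 had 155, 210 and 130 CPM, and LeuR 21 lay among the Control libraries. The log2 fold change was 1.97 ± 0.38 (SE, adjusted p = 0.00451) for IleR, 2.64 ± 0.38 (adjusted p = 0.000334) for ValR, and 0.45 ± 0.38 (adjusted p = 0.486, not called) for LeuR.

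Lhx1 and Lhx5 are LIM homeodomain transcription factors that act together when Purkinje cells form, and Lhx1 remains on in adult Purkinje cells. Lhx1 lies on chromosome 11 from 84518284 to 84525535 on the minus strand, and Lhx5 on chromosome 5 from 120431699 to 120441223 on the plus strand. The 250 bases before the Lhx1 start site, at chr11:84525535-84525784 of the minus strand (RefSeq, GRCm38.p6), are shown as the contrast to Pcp2.
Lhx1: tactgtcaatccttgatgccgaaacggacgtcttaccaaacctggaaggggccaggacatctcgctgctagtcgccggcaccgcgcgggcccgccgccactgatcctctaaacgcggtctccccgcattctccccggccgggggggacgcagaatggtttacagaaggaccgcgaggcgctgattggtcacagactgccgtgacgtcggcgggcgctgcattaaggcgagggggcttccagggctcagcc
The Lhx1 window of 300 bases is 65.7% G or C with 31 CG pairs, and none of the 4 motifs was found in it. The Pcp2 window is 51.0% G or C with 1 CG pair, beside a median of 52.7% and 7 pairs over all windows. Of the other genes, Slc1a6 (75.7% G or C, 32 CG pairs) and Rgs8 (58.3%, 12 CG pairs) had a window in the table, and Slc1a6 held the E-box letters once.

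Control 4 stood apart for both factors. Lhx1 was at 0, 0.355, 8.34 and 0.112 CPM and Lhx5 at 0.0681, 0.177, 4.84 and 0 CPM in Control 1, 3, 4 and 5, and the 131 counts of Lhx1 in Control 4 stood beside 9 counts of Pcp2. Lhx1 was at 21.4, 30.7 and 49.0 CPM in IleR 13, 14 and 17, at 13.3, 25.7 and 9.82 CPM in LeuR 19, 20 and 21, and at 46.8, 27.0, 54.5 and 57.2 CPM in ValR 7, 9, 10 and 12. Lhx5 was at 8.32, 11.3 and 12.4 CPM in the IleR libraries, at 7.97, 6.68 and 9.82 CPM in the LeuR libraries, and at 13.8, 10.0, 15.4 and 16.1 CPM in the ValR libraries, in the same order. Each restricted library lay above Control 4 for both genes, LeuR 21 included, where Lhx1 and Lhx5 had 174 counts each.

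Lhx1 was called higher for IleR, at 3.95 ± 0.93 (SE, adjusted p = 0.0123), and for ValR, at 4.41 ± 0.92 (adjusted p = 0.00373), and not for LeuR, at 2.89 ± 0.93 (adjusted p = 0.0638). Lhx5 was called for IleR, at 3.08 ± 0.91 (adjusted p = 0.0362), and for ValR, at 3.46 ± 0.89 (adjusted p = 0.0125), and not for LeuR, at 2.69 ± 0.91 (adjusted p = 0.0754). Without Control 4 the differences were larger and all were called, at 7.65, 6.59 and 8.11 for Lhx1 and at 6.92, 6.53 and 7.30 for Lhx5 with IleR, LeuR and ValR. The Lhx5 call for IleR was lost when any 1 of Control 1, 3 or 5, IleR 13, 14 or 17, or ValR 7, 10 or 12 was left out, with adjusted p between 0.0514 and 0.0963.

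**Figure D2:**
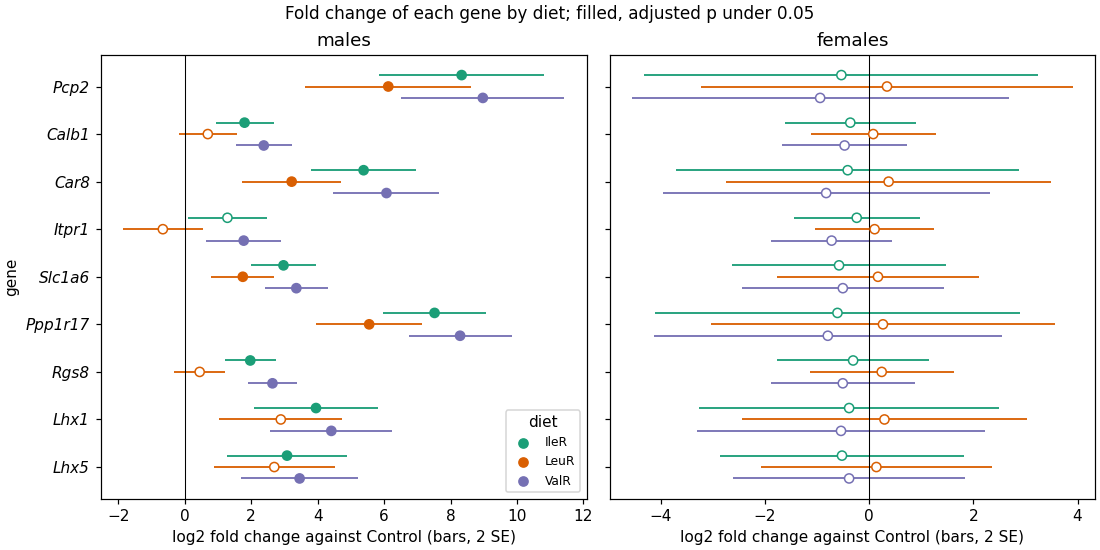
Log2 fold change of each gene against Control in males (left) and females (right), with bars of 2 SE; filled points passed an adjusted p of 0.05. In males 8 IleR, 4 LeuR and 9 ValR points are filled, and in females none is filled and all bars cross 0.

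Whether all libraries of a diet lay above all Control libraries was also counted. This held for 8 of 9 genes with IleR, 4 of 9 with LeuR (Slc1a6, Ppp1r17, Lhx1 and Lhx5) and 8 of 9 with ValR, beside 14.8%, 8.21% and 12.7% of all genes tested. The 4 LeuR calls were Pcp2, Car8, Slc1a6 and Ppp1r17, so that 2 of them, Pcp2 and Car8, were called although LeuR 21 lay with Control. The LeuR count fell to 2 without Control 1, Control 3, LeuR 19 or LeuR 20, was 5 without LeuR 21 and 6 without Control 4. Genes of any kind called higher moved with it, from 845 to 214, 189, 142 and 549 without Control 1, Control 3, LeuR 19 and LeuR 20, and to 1606 without LeuR 21 and 1769 without Control 4. The calls lost in those 4 cases were Car8, with adjusted p of 0.0553 to 0.0719, and Slc1a6, whose call was lost as well without Control 5, IleR 14 or ValR 7, with adjusted p of 0.0502 to 0.166. It was 0 when only Control and LeuR libraries were fitted, where none of 21015 genes was called, and 3 with limma voom, which called Ppp1r17, Lhx1 and Lhx5, beside 869 higher and 1542 lower of 22197 genes.

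Between the restricted diets, ValR-fed males had higher levels than LeuR-fed males for 2 of the 9 genes, Ppp1r17 at 2.74 ± 0.58 (SE) and Rgs8 at 2.19 ± 0.41, each with an adjusted p of 0.0482. Over all genes, 1.7% were called higher in that comparison. The other 7 genes were 0.76 to 2.85 higher on the log2 scale and were not called, with adjusted p of 0.0565 to 0.620. limma voom called 4 of the 9, beside 434 of 22197 genes higher, and DESeq2 6, beside 1483 of 17422. Against IleR, none of the 9 was called for ValR (0.0% of all genes), with differences of 0.38 to 0.77, and none was called by limma voom or DESeq2. With edgeR none of the 9 had an unadjusted p under 0.05, beside 628 of 22197 genes. The interval of 2 SE around the Pcp2 difference between ValR and IleR ran from -0.99 to 2.26. None was called between IleR and LeuR (0.0% of all genes) by edgeR or limma voom. With edgeR 7 of the 9 had an unadjusted p under 0.05, beside 2512 of 22197 genes. DESeq2 called 1 of the 9, beside 79 higher and 28 lower of 17422.

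In females the same genes spread as widely, but within each diet. Pcp2 had a low, median and high of 0.249, 1.68 and 252 CPM in Control, 0.0954, 0.669 and 246 CPM in LeuR, and 0.281, 1.39 and 112 CPM in ValR. In IleR-fed females it was at 0.124, 0.441, 53.2, 141 and 0.410 CPM in IleR 38, 39, 40, 41 and 42. The high libraries were Control 29 and 30, IleR 40 and 41, LeuR 45 and 48, and ValR 31 and 36. Car8 was above 100 CPM in these 8 libraries and at most 12.7 CPM in the other 15.

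Ppp1r17 had a low, median and high of 0.114, 1.38 and 140 CPM in Control, 0.191, 0.929 and 124 CPM in LeuR, and 0.351, 1.84 and 70.5 CPM in ValR. Slc1a6 ranged from 4.96 to 148 CPM over the 23 female libraries, Calb1 from 76.0 to 719 CPM, and Rgs8 from 91.0 to 1036 CPM. Itpr1 ranged from 313 to 3142 CPM, with medians of 730 in Control, 851 in IleR, 697 in LeuR and 622 in ValR libraries. Lhx1 and Lhx5 were at 0 in some libraries low in Pcp2, such as Control 28 and IleR 39, and not in others. Control 27, with 2.73 CPM of Pcp2, had 7.84 CPM of Lhx1 and 7.16 CPM of Lhx5, and its Lhx5 exceeded the 5.92 CPM of Control 29, a high library.

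No gene of the 9 was called in any of the 6 female comparisons with edgeR, limma voom or DESeq2. None had an unadjusted p under 0.05 with edgeR, beside 577 to 1251 of 20344 genes per comparison. With edgeR the same comparisons called 0.0% of all genes, limma voom called 1 gene of any kind over the 6 comparisons, and DESeq2 called the most between IleR and LeuR, with 11 higher and 12 lower of 17969. The log2 fold changes ran from -0.61 to -0.24 for IleR, from 0.08 to 0.38 for LeuR and from -0.94 to -0.38 for ValR, beside medians over all genes within 0.01 of 0. The intervals were wide. That of Pcp2 with ValR, at 2 SE, ran from -4.55 to 2.68, and that of Itpr1 with IleR, which was narrower, from -1.44 to 0.97.

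Whether the response to diet differed between the sexes was tested as a diet by sex term in a model of all 37 libraries. The male response exceeded the female response for all 9 genes with IleR and ValR and for 8 with LeuR, and no difference was called. With ValR the differences were 9.84 ± 3.27 (SE) for Pcp2, 9.01 ± 2.87 for Ppp1r17 and 2.80 ± 0.86 for Calb1, and the smallest adjusted p was 0.0540, for Calb1. All 9 genes had an unadjusted p under 0.05 with ValR, 6 with IleR and none with LeuR, beside 5834, 4280 and 2911 of all 22465 genes. The smallest adjusted p of the 9 genes were 0.146 with IleR and 0.452 with LeuR. Over all genes, edgeR called 4.25% for ValR, 0.0979% for IleR and 0.00445% for LeuR. DESeq2 called 7 of the 9 genes for ValR, 2 for IleR and 0 for LeuR, and limma voom called 0 on each diet. Over all genes by sex, DESeq2 called 810 higher and 1558 lower of 18099 for ValR, 154 and 888 of 17665 for IleR, and 73 and 237 of 14617 for LeuR, and limma voom called 4 higher and 25 lower for ValR, none for IleR and 1 for LeuR.

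Compared per length, as mean CPM per kilobase of exon, Itpr1 stood first in Control-fed males at 38.4 ± 18.5 (SD, n = 4), followed by Calb1 at 19.8 ± 6.15, Rgs8 at 12.6 ± 2.36 and Slc1a6 at 4.37 ± 1.89. Itpr1 and Calb1 overlapped in their spread, as did Calb1 and Rgs8. Car8 followed at 1.67 ± 0.139, and Ppp1r17 (0.167 ± 0.163) and Pcp2 (0.154 ± 0.128) stood last and did not differ beyond their spread. In ValR-fed males Itpr1 was again first at 131 ± 62.2 (n = 4), with Car8 second at 112 ± 59.9, then Calb1 at 103 ± 48.2, Rgs8 at 78.3 ± 37.6 and Pcp2 at 78.0 ± 38.8. These 5 neighbours did not differ beyond their spread. Lhx1 at 11.4 ± 3.35 and Lhx5 at 5.15 ± 1.01 were last on that diet.

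Ratios of counts between the genes were taken within each library, in the 17 libraries with at least 50 counts of both genes, which hold both sexes and, for females, all 4 diets. They are the same 17 libraries that lay above 10 CPM of Pcp2, and 0 of 4 male Control libraries are among them. The ranges of the ratios to Pcp2 therefore describe only libraries high in Pcp2. Pcp2 ranged from 15.9 to 252 CPM over these 17 libraries, whereas Ppp1r17 per Pcp2 ranged only from 0.505 in female LeuR 45 to 0.728 in male IleR 13, with a median of 0.576. Car8 per Pcp2 ranged from 2.12 to 3.55, Calb1 per Pcp2 from 2.62 to 4.86, and Itpr1 per Pcp2 from 12.1 to 23.7. The ratio to Pcp2 was looser for Slc1a6 (0.523 to 1.26), and loosest for Lhx1 (0.217 to 0.837) and Lhx5 (0.0517 to 0.5). Rgs8 per Pcp2 ranged from 3.91 to 9.75, but the 9.75 was male LeuR 19 and the next highest value was 6.08 in male IleR 13. The Lhx5 ratio varied 9.67-fold, but the 0.5 was male LeuR 19 and the next highest value was 0.182 in male IleR 13. Most of that spread rests on LeuR 19. Lhx5 itself ranged from 3.82 to 17.2 CPM in the 17 libraries. Male LeuR 19, the library of the 17 with least Pcp2, was highest for Car8, Rgs8, Lhx1 and Lhx5 per Pcp2. Lhx1 per Lhx5 could be taken in 21 libraries and ranged from 1.0 in male LeuR 21 to 4.23 in female LeuR 45.

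**Figure D3:**
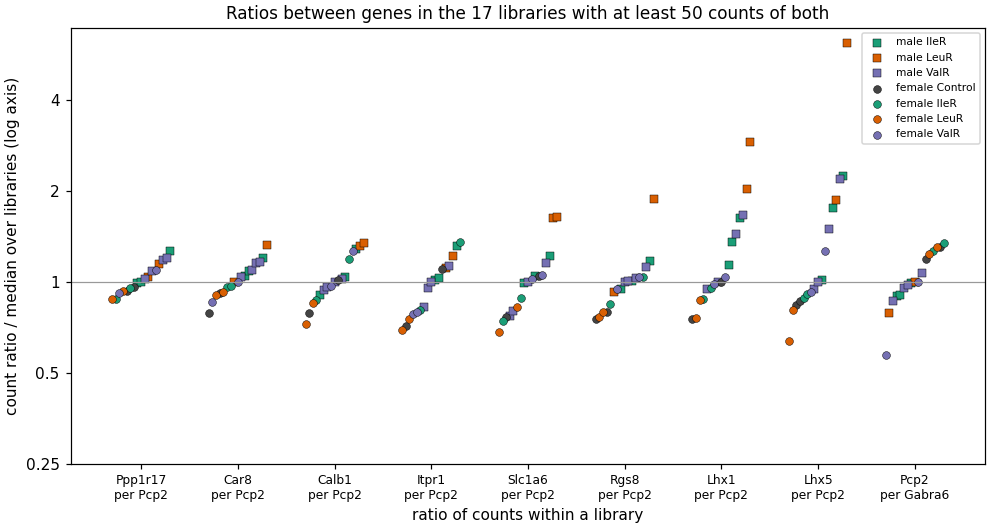
Ratio of the counts of 2 genes within a library, divided by its median over the 17 libraries with at least 50 counts of both, on a log axis; squares are male and circles female libraries, coloured by diet. Ppp1r17 per Pcp2 and Car8 per Pcp2 stay within a narrow band, while Lhx5 per Pcp2 spreads from 0.0517 to 0.5 before scaling, with male LeuR 19 highest.

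The genes most like each of the 9 were ranked by Pearson's r of log2 CPM, with the diet means taken out, over the 23 female libraries, among 13886 genes whose mean log2 CPM was 1 or more. Since the libraries fall into 2 sets and share the samples they came from, these are descriptions. Pcp2 was most like Cbln3 (r = 0.995), Gabra6 (0.993) and Car8 (0.991), of which the first 2 are genes of cerebellar granule cells and not of Purkinje cells. In the 14 male libraries r was 0.953, 0.956 and 0.933 for the same genes. Car8 was most like Cbln3 (0.993), Atp2a3 (0.993) and Pcp2, and Ppp1r17 was most like Cbln3 (0.980), Slc1a6 (0.978) and Pcp2 (0.977).

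Itpr1 was most like Syne1 (0.964), Exph5 (0.962) and Mtcl1 (0.960), and Calb1 like Sbk1 (0.979), Atl2 (0.970) and Trim62 (0.970). Slc1a6 was most like Car8 (0.986), Alms1 (0.986) and Megf11 (0.985), and Rgs8 like Pan2 (0.983), Grm4 (0.983), a granule cell glutamate receptor, and Pde3b (0.982). Lhx1 was most like Barhl2 (0.974), Cbln1 (0.965) and Lhx5 (0.962), and Lhx5 like Lhx1, Mab21l1 (0.952) and Sparc (0.944). In males r with Pcp2 was lower than in females for each of the other 8 genes, and lowest for Calb1 (0.115 against 0.915) and Lhx5 (0.123 against 0.774).

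Genes of other cells moved in the same libraries. The 10 genes of the granule cell list, which includes Gabra6 and Cbln3, summed to 130 to 163 CPM in the 4 male Control libraries, 1516 to 3855 CPM with IleR, 298 to 1625 CPM with LeuR and 1610 to 4750 CPM with ValR. Of the 10, 9 were called higher with IleR, 6 with LeuR and 9 with ValR, beside 6.63%, 3.81% and 11.1% of all genes. Gabra6, the granule cell GABA receptor subunit, had 0, 0, 1 and 1 counts in Control 1, 3, 4 and 5 and 0 in LeuR 21, and at least 703 counts in each other male library. Pcp2 per Gabra6 ranged from 0.291 in female ValR 31 to 0.681 in female IleR 40 over the 17 libraries, with a median of 0.506. With the granule cell list's level as a covariate, 0 of the 9 genes were called with IleR, 1 (Ppp1r17) with LeuR and 0 with ValR. That fit called few genes of any kind, with 2 higher and 0 lower (IleR), 65 and 23 (LeuR), and 0 and 0 (ValR) of 22197. In males the list's summed CPM was higher in every restricted library than in every Control library. Diet and the list's level therefore cannot be fully separated in this fit.

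**Figure D4:**
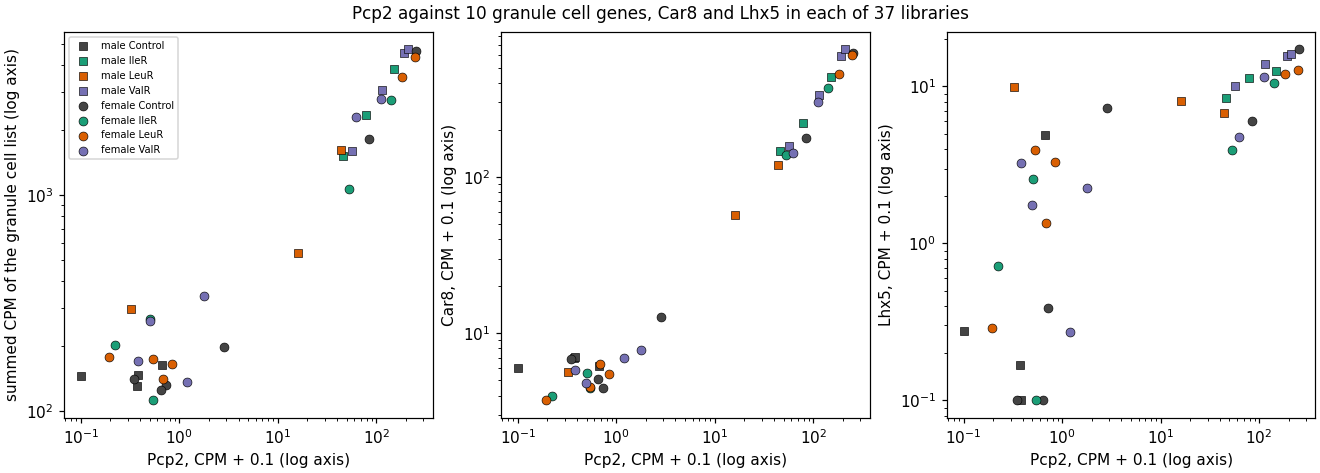
Pcp2 in each of 37 libraries, as CPM plus 0.1, against the summed CPM of 10 granule cell genes (left), Car8 (middle) and Lhx5 (right), on log axes; squares are male and circles female libraries, coloured by diet. The libraries form a low and a high set in the first 2 panels, while Lhx5 also spreads from 0 to 9.82 CPM among libraries low in Pcp2.

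The brainstem and spinal cord list of 10 genes, such as Slc6a5 and Hoxb3, had 5, 7 and 9 called higher with IleR, LeuR and ValR in males, beside 6.63%, 3.81% and 11.1% of all genes, and summed to 0.559 to 3.44 CPM with Control, with Hoxb5, Hoxa5 and Hoxc4 among the genes at 0, and to 96.4 to 582 CPM with ValR. LeuR 21 had 1.24 CPM of this list. The cortex and hippocampus list went the other way, with 10, 7 and 10 of 10 called lower, beside the 8.67%, 6.33% and 12.4% of all genes, and sums of 2861 to 9804 CPM with Control and 402 to 600 CPM with ValR. The striatum list had 4, 0 and 5 of 10 lower, beside the same shares. Control 4 was lowest of the Control libraries for the cortex and hippocampus list and the striatum list, at 2861 and 401 CPM. Hypothalamic genes, such as Oxt and Pmch, were called higher with LeuR for 4 of 5 tested (3.81% of all genes) and with IleR (6.63%) and ValR (11.1%) for none, and LeuR 21 held 693 CPM of them where no other male library passed 6.02 CPM. What part these genes' sources had in the Purkinje cell results was not tested.

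The lists of more general cell types were counted against the same background, 6.63%, 3.81% and 11.1% of all genes called higher and 8.67%, 6.33% and 12.4% lower with IleR, LeuR and ValR. Of 7 pan-neuronal genes, 1, 1 and 1 were called higher and 1, 1 and 2 lower, in that order of diets. Of 5 astrocyte genes 2, 1 and 2 were called higher, of 5 microglia genes 2, 0 and 4 were called lower, and no gene of the oligodendrocyte or choroid plexus lists was called. In females no gene was called in any list, but only 3 of 10 brainstem and spinal cord genes and 2 of 8 hypothalamic genes passed the filter and were tested there.

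Of 15 other Purkinje cell genes, 10, 4 and 12 were called higher in IleR-fed, LeuR-fed and ValR-fed males, and 1 was called lower with LeuR. Among all genes, 6.63%, 3.81% and 11.1% were called higher, and 6.33% lower with LeuR. Their median log2 fold change was 1.10, 0.61 and 1.42. Skor2, a corepressor of Purkinje cell differentiation, averaged 0.0796 CPM with Control and 10.1 ± 3.76 CPM (SD, n = 4) with ValR. Mtss1 (1.75 ± 0.24) and Dner (1.42 ± 0.19), which are used more widely in neurons, also rose with ValR, with adjusted p of 0.000260 and 0.000278.

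Of 17 further genes of IP3 and calcium signalling, 8 were called higher and 4 lower with IleR, 2 and 5 with LeuR, and 8 and 4 with ValR. Over all genes, 6.63% were called higher and 8.67% lower with IleR, 3.81% and 6.33% with LeuR, and 11.1% and 12.4% with ValR. Those that rose with ValR included Homer3, the Purkinje cell scaffold of metabotropic receptors, from 11.1 ± 3.83 to 214 ± 95.6 CPM, and Atp2a3, an endoplasmic reticulum calcium pump, from 12.2 ± 2.16 to 171 ± 75.9 CPM. Those that fell with ValR included Homer1, a scaffold of the same family as Homer3, from 231 ± 121 to 28.2 ± 3.76 CPM and Plcb1, a phospholipase C, from 286 ± 100 to 88.6 ± 9.33 CPM. The 4 differences with ValR were 4.27 ± 0.58, 3.81 ± 0.46, -3.03 ± 0.39 and -1.69 ± 0.22 (SE), each with an adjusted p between 0.000164 and 0.000279.

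Family relatives of the 9 genes were mostly lower where they were called. Of 13 of them, 1 was called higher and 5 lower with IleR, 1 and 5 with LeuR, and 1 and 6 with ValR, beside those same shares of all genes, and the one that rose was Calb2, the calretinin gene. Rgs4 fell from 308 ± 140 to 47.2 ± 13.6 CPM with ValR (-2.71 ± 0.36, adjusted p = 0.000261), Slc1a1, a neuronal glutamate transporter, from 113 ± 10.2 to 56.4 ± 9.27 CPM (adjusted p = 0.000145), and Ppp1r1a from 45.7 ± 11.0 to 8.84 ± 2.19 CPM (-2.37 ± 0.28, adjusted p = 0.000136). Of 11 LIM homeodomain factors and cofactors tested, 2, 2 and 3 rose and 3, 1 and 3 fell with IleR, LeuR and ValR, beside 6.63%, 3.81% and 11.1% of all genes higher and 8.67%, 6.33% and 12.4% lower. Lhx2, a factor of the cortex, fell from 58.4 ± 16.9 to 2.59 ± 1.27 CPM with ValR (-4.49 ± 0.68, adjusted p = 0.000490), and Lmx1b, a factor of hindbrain serotonin neurons, rose from 0.204 ± 0.206 to 7.04 ± 5.47 CPM (5.08 ± 0.82, adjusted p = 0.000721).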

How the data were processed

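The authors aligned reads to mouse GRCm38.p5 and deposited expected counts per Ensembl gene and library, with no normalization; aligner, annotation release and whether counting used strand are not given in the sources used here, and the labels name both polyA and total RNA. The labels list R 3.4.3, edgeR and limma among the submitters' tools. The deposited tables of fold changes hold the authors' own comparisons and were not used. Expected counts were rounded; a gene was kept where all libraries of any diet group had 1 count or more. The 4 diets of a sex were fitted in 1 model (edgeR 4.0.16 quasi-likelihood test, TMM, Benjamini-Hochberg, R 4.3.3); the sexes were compared in 1 model of 8 groups. limma 3.58.1 (voom) and DESeq2 1.42.0 served as alternatives, with other scalings and filters, a granule cell covariate and each library left out. Log2 CPM used a prior count of 2, and an SE is the size of the log2 fold change over the square root of the test's F. Symbols, exon lengths and positions came from GENCODE M21 (GRCm38), which lacked 3281 identifiers; promoters came from RefSeq (GRCm38.p6), matched for 4 of 9 genes. All 73 pairs of libraries within a group differed by more than sampling noise. The fits were tested on simulated data.

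The members and the 14 other lists were chosen with earlier results of these data known. All 9 genes are named in each comparison, at most 4 genes of each other list, those with the smallest p for ValR in males, and the 3 genes most like each of the 9. Calb2, Gabra6 and the genes at 0, or given only as examples of a list, were named after their values were seen. Some genes of these lists are not reported here.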

Additional observations from a re-analysis of the deposited data

Results flagged for a closer look

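A library was looked at again where its gap to the next, divided by the range of its group, passed Dixon's 95% limit. Of 54 sets, each 1 gene in 1 group of 4 to 6 libraries, 7 had such a library. The sets reuse the same libraries for 9 genes that vary together. The 7 are therefore not independent and cannot be set against the 1 in 20 that chance alone marks. Female Control 30 stood above its group for Pcp2 (0.667 of the range, 252 CPM), Calb1 (0.648, 719 CPM), Car8 (0.718, 622 CPM), Ppp1r17 (0.677, 140 CPM) and Rgs8 (0.764, 1036 CPM). Male Control 4 stood above its group for Lhx1 (0.957, 8.34 CPM) and Lhx5 (0.963, 4.84 CPM). The groups of 3 male libraries were not examined in this way.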

How the results depend on the processing

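Limits: the male comparisons rest on 3 or 4 libraries a group, and the 10 other labelled male libraries are not analysed here. Without 1 library each, the number of the 9 genes called in males lay between 6 and 8 (IleR), 2 and 6 (LeuR), and 8 and 9 (ValR), beside 648 to 1970, 142 to 1769 and 1710 to 3008 of all genes higher, and was 0 in females throughout. No paired analysis was possible because no replicate number occurs in more than 1 library.

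With limma voom ValR exceeded LeuR in males for 4 of the 9 genes, beside 434 of all 22197, and with DESeq2 for 6, beside 1483 of 17422. DESeq2 also called 1 of the 9 between IleR and LeuR, beside 79 higher and 28 lower of 17422. By sex DESeq2 called 2 with IleR, beside 154 higher and 888 lower of 17665, and 7 with ValR, beside 810 and 1558 of 18099. DESeq2 gave no adjusted p for Lhx5 with IleR and ValR in males, where its counts were 7 and 8, beside 1857 of 19570 and 2807 of 20861 genes higher. With only Control and LeuR fitted, 0 of the 9 and 0 of all 21015 genes were called; the cause was not tested. With the granule cell list as a covariate the counts were 0 (IleR), 1 (LeuR) and 0 (ValR), beside 2 higher and 0 lower, 65 and 23, and 0 and 0 of all 22197 genes. Called differences changed sign for Car8 (-0.34, -0.67 and -0.043 with IleR, LeuR and ValR) and for Itpr1 with ValR (-1.65). In males the list's level followed diet, so this fit cannot fully separate them, and the cause was not tested. Lhx1 and Lhx5 could not be tested in females with only Control and IleR fitted. Library totals, RLE scaling and both other filters kept the direction and call of all 9 genes in males. In females, 16 of 214 values under other settings and 47 of 621 with a library left out changed sign, none of them called before or after.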
